A study of Mus musculus with 6 samples.

Results

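The genes described are 10 cyclic nucleotide phosphodiesterases, Pde1a, Pde1b, Pde1c, Pde2a, Pde4a, Pde4b, Pde4d, Pde7b, Pde8b and Pde10a. They were taken by gene name from a deposited table of 23067 genes, and all 10 were found and passed the filter on low values. Dorsal striatum of mice was taken at postnatal day 21 for bulk RNA sequencing. There were 3 libraries from knock-in mice carrying the G2019S change on both alleles of Lrrk2 and 3 libraries from wild-type mice, each with 1 FPKM value per gene. FPKM is a level scaled by transcript length and sequencing depth. Lrrk2 encodes a kinase, and G2019S is a substitution known from familial Parkinson's disease. A knock-in alters the endogenous gene, so the change is not limited to a cell type by a promoter or a Cre. The labels do not state separate mice for the libraries, so the p-values cover only the spread among these samples, and part of it may be technical.

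Phosphodiesterases end cyclic nucleotide signals by hydrolysing cAMP, cGMP or both. In striatal projection neurons, the main neurons of this tissue, dopamine and adenosine receptors set cAMP through the adenylyl cyclase Adcy5, and nitric oxide sets cGMP through soluble guanylyl cyclase. The PDE1 enzymes are activated by calcium and calmodulin, PDE2 and PDE10 act on both nucleotides, and PDE4, PDE7 and PDE8 are specific for cAMP.

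All 6 samples are titled male, yet Xist, the RNA of the inactive X chromosome, stood at 30.8, 27.2 and 39.3 FPKM in knock-in libraries, against 31.4, 33.0 and 31.6 FPKM in wild-type libraries. The table holds no row for the Y-linked genes Ddx3y, Kdm5d, Eif2s3y or Uty. It also holds no value of 0, so a row may be missing because of a single library. The Xist levels go against the titled sex in both groups. No phosphodiesterase described here lies on a sex chromosome. The 14 listed markers of striatal projection neurons were all present, and their summed level was 3150.0 to 3477.8 FPKM in knock-in and 3171.8 to 3290.7 FPKM in wild-type libraries, with Penk, the enkephalin precursor, the highest of them. Lrrk2 itself was at 12.1, 11.3 and 12.4 FPKM in knock-in libraries, against 10.9, 12.0 and 11.0 FPKM in wild-type libraries, which does not check the genotype since the knock-in changes the protein. Bulk values cannot tell fewer cells of a type from less RNA per cell.

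The promoter windows of 3 genes are shown because of where the genes stand in the data. Pde1b had the highest level of the 10, and Pde2a and Pde4d were the members whose knock-in and wild-type libraries did not overlap. Each window runs from 250 bases before to 50 bases after a start listed by RefSeq on GRCm38.p6, 5′ to 3′ on the plus strand, with CG dinucleotides in capitals. The Pde1b window is chr15:103502784-103503083, the Pde2a window is chr7:101421441-101421740 and the Pde4d window is chr13:108653927-108654226, which lies inside the annotated gene.
Pde1b: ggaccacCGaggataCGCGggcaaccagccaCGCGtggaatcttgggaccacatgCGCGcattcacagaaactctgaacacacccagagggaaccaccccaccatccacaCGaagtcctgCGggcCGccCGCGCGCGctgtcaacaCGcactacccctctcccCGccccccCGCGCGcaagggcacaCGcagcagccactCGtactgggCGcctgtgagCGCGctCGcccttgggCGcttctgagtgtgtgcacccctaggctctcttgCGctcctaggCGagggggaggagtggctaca
Pde2a: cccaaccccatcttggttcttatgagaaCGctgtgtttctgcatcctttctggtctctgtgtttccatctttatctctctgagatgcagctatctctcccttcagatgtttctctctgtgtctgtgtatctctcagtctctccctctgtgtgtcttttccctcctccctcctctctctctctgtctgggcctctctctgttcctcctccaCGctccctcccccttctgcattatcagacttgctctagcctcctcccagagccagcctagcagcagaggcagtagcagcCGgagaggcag
Pde4d: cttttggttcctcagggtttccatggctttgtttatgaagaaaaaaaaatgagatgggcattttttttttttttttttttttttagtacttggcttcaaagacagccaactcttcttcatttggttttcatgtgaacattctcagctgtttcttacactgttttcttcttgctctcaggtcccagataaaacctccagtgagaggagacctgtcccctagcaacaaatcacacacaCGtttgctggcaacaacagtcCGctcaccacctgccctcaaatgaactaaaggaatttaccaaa
The Pde1b window held 28 CG dinucleotides, above the upper quartile of 20 over 32851 RefSeq windows of the same length. The other 2 of its windows held 1 and 2. The Pde2a window shown held 3, at the lower quartile, and the Pde4d window held 2. Another of the 5 Pde2a windows held 29. The 10 members had 31 windows in all. The cAMP response element TGACGTCA was in 0 of the 31, against 1.79% of all windows, and its shorter form TGACG, on either strand and also contained in the full element, was in 5 of the 31, against 20.8% of all windows. The levels are per gene and do not show which start was used.

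The levels spanned 0.983 to 642.7 FPKM, and the order was nearly the same in each library. Pde1b averaged 598.6 FPKM over the 6 libraries, rank 39 of the 23067 genes, followed by Pde2a at 155.6 FPKM (rank 190) and Pde10a at 125.6 FPKM (rank 250). Pde10a was 6.73 to 8.77 times the next gene in each library. Then came Pde8b at 15.8, Pde7b at 15.3, Pde4b at 13.8 and Pde4a at 10.7 FPKM. Pde1a at 3.52, Pde4d at 1.89 and Pde1c at 1.12 FPKM were the lowest. Each gene exceeded the next in all 6 libraries, apart from Pde8b over Pde7b, which held in 4 of 6. The order of Pde8b and Pde7b was thus not the same in every library. Pde7b exceeded Pde4b by 1.05 to 1.19 times within each library, though their ranges over the libraries overlapped.

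**Figure D1:**
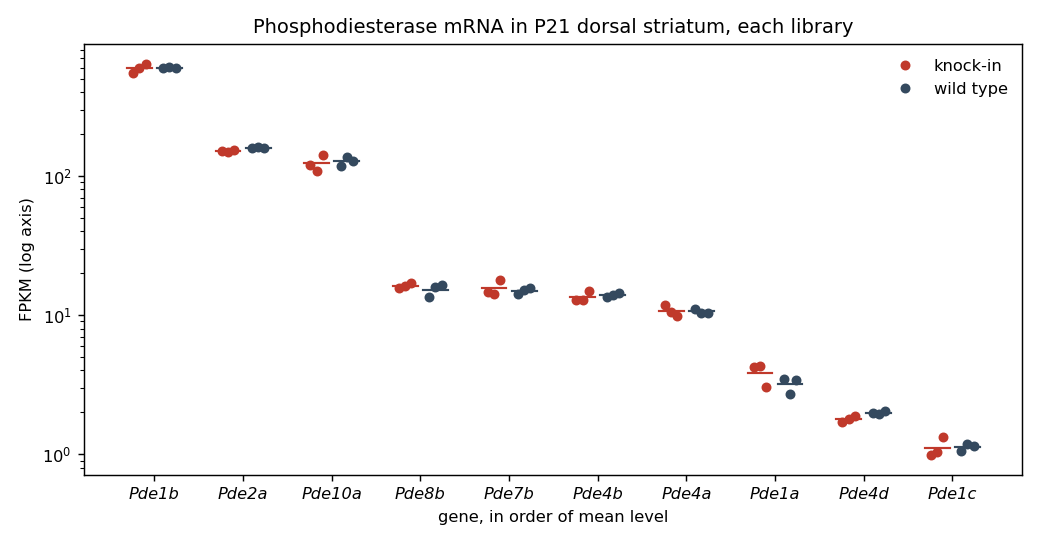
FPKM on a log axis of the 10 phosphodiesterases, 1 point per library and a bar at each group mean, knock-in left of wild type. Pde1b, Pde2a and Pde10a lie above 100 FPKM in every library and the other 7 genes below 20 FPKM.

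The design sets knock-in against wild-type striatum. On average 4 of the 10 genes were higher and 6 lower in knock-in, where 56.4% of all genes tested were lower. Of the 10, the ratio of group means was highest for Pde1a at 1.21 and lowest for Pde4d at 0.904. By limma on log2(FPKM + 1), with Benjamini-Hochberg adjustment over 14156 genes, 0 of the 10 were called at an adjusted p under 0.05, against 0.0212% of all genes tested (0.0141% higher and 0.00706% lower), and 0 of the 10 reached an unadjusted p under 0.05, against 4.27% of all genes. The adjusted p was 0.997 for each of the 10. The median log2 difference was -0.01 over the 10 genes and -0.01 over all genes tested. The 95% intervals bound the fold change of Pde1b between 0.875 and 1.13 and that of Pde10a between 0.811 and 1.15 on this scale, which understates changes of low genes.

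**Figure D2:**
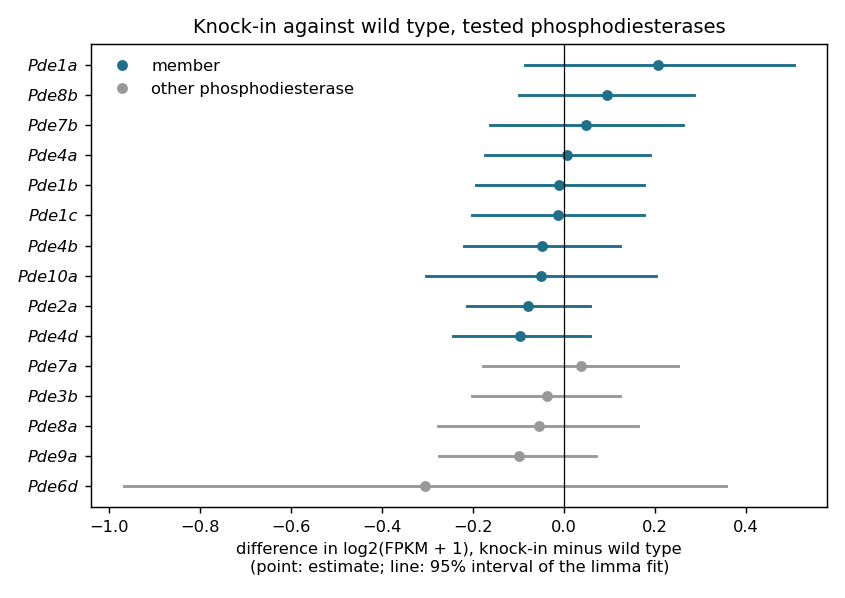
Difference in log2(FPKM + 1), knock-in minus wild type, for the 15 tested phosphodiesterases, as a point with the 95% interval of the limma fit. Every interval spans 0, and the widest is that of Pde6d.

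Positions are on GRCm38 from GENCODE M21. Among the calcium-activated enzymes, Pde1b (ENSMUSG00000022489, chr15:103503034-103530052, plus strand), the main PDE1 form of striatal projection neurons, had levels of 553.6, 594.7 and 642.7 FPKM in knock-in libraries, against 593.8, 611.9 and 595.0 FPKM in wild-type libraries. The knock-in libraries lay on both sides of the wild-type ones, and their coefficient of variation was 7.47%, against 1.69% in wild type. The mean was 597.0 ± 44.6 FPKM in knock-in and 600.2 ± 10.1 FPKM in wild type (SD, n = 3 each), and the log2 difference was -0.01 (SE 0.08). Pde1a (ENSMUSG00000059173, chr2:79834453-80129458, minus strand), whose enzyme prefers cGMP, was at 4.21, 4.30 and 3.06 FPKM in knock-in libraries, against 3.45, 2.69 and 3.42 FPKM in wild-type libraries. Knock-in replicates 1 and 2 were the highest of all 6, while knock-in replicate 3 lay among the wild-type values. The log2 difference was 0.21 (SE 0.13), with a fold interval of 0.943 to 1.42. Pde1c (ENSMUSG00000004347, chr6:56069804-56569103, minus strand), which hydrolyses cAMP and cGMP alike, was at 0.983, 1.03 and 1.32 FPKM in knock-in libraries, against 1.05, 1.19 and 1.14 FPKM in wild-type libraries. The groups overlapped, and the log2 difference was -0.01 (SE 0.08).

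Summed markers of another cell type were high in the same libraries as Pde1a. The 10 listed markers of cortical excitatory neurons, 9 of them in the table, summed to 45.2, 37.8 and 7.64 FPKM in knock-in libraries, against 18.4, 8.74 and 7.32 FPKM in wild-type libraries. Slc17a7, which loads glutamate into vesicles of cortical neurons, had 29.9, 25.2 and 3.41 FPKM in knock-in libraries, against 11.0, 3.55 and 2.73 FPKM in wild-type libraries. Slc17a7 was the largest part of the sum in each library. Emx1, a transcription factor of cortical excitatory neurons, was under 1 FPKM in every library. Cux2 and Rorb, also listed and tested, differed little between groups, with ratios of group means of 1.03 and 1.02. The 2 libraries with the highest summed cortical markers were also the 2 with the highest Pde1a. With the mean of the 5 tested cortical markers as a covariate, the log2 difference of Pde1a was 0.03. That covariate differs between the groups itself, since Neurod2 and Neurod6 averaged 1.55 and 2.27 FPKM in knock-in and 0.51 and 0.416 FPKM in wild type and reached the filter through knock-in. The part of these markers in the Pde1a values was not tested.

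Among the PDE2 and PDE10 genes, Pde2a encodes an enzyme that cGMP stimulates to hydrolyse cAMP. Pde2a was at 151.2, 147.9 and 154.8 FPKM in knock-in libraries, against 158.3, 161.8 and 159.6 FPKM in wild-type libraries. All knock-in libraries lay below all wild-type libraries. The mean was 151.3 ± 3.46 FPKM in knock-in and 159.9 ± 1.79 FPKM in wild type (SD, n = 3 each), a ratio of 0.946, and the log2 difference was -0.08 (SE 0.06), not called. Of the 10 members 2 had groups that did not overlap, both lower in knock-in, against 9.51% of all genes tested, 2.92% higher and 6.58% lower. Pde2a (ENSMUSG00000110195, chr7:101421691-101512827, plus strand, 12 transcripts) shares 3955 of its 6149 exon bases with the predicted gene Gm45837 on the same strand, so reads could go to either. Gm45837 stood at 1.94, 0.07 and 2.19 FPKM in knock-in libraries, against 0.21, 0.0392 and 0.0703 FPKM in wild-type libraries. The 2 genes summed to 153.1, 148.0 and 157.0 FPKM in knock-in, against 158.5, 161.9 and 159.6 FPKM in wild type, without overlap. Each FPKM is scaled by the length of its own gene, so this sum does not restore reads shared between them. The part of shared reads in the Pde2a values was not tested.

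Pde10a (ENSMUSG00000023868, chr17:8525372-8986648, plus strand), the enzyme abundant in projection neurons of both striatal output pathways, was at 120.0, 108.7 and 142.4 FPKM in knock-in libraries, against 118.1, 136.6 and 127.8 FPKM in wild-type libraries. Knock-in replicates 2 and 3 were the lowest and the highest of the 6. The mean was 123.7 ± 17.1 FPKM in knock-in and 127.5 ± 9.26 FPKM in wild type (SD, n = 3 each), and the log2 difference was -0.05 (SE 0.11). The ratio of Pde1b to Pde10a was 4.87 ± 0.525 in knock-in and 4.72 ± 0.28 in wild type, and that of Pde1b to Pde2a was 3.94 ± 0.253 in knock-in and 3.75 ± 0.0261 in wild type (SD, n = 3 each), both overlapping between groups.

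The PDE4 enzymes are the cAMP-specific forms that rolipram inhibits. Pde4d was at 1.70, 1.79 and 1.89 FPKM in knock-in libraries, against 1.97, 1.93 and 2.06 FPKM in wild-type libraries. All knock-in libraries were again below all wild-type ones, by a small margin. The mean was 1.79 ± 0.0954 FPKM in knock-in and 1.99 ± 0.0667 FPKM in wild type (SD, n = 3 each), with a log2 difference of -0.10 (SE 0.06), not called. Pde4d (ENSMUSG00000021699, chr13:108449948-109953461, plus strand) is the longest of the 10 at 1503514 bases, with 20 annotated transcripts that the gene-level value joins. Pde4b (ENSMUSG00000028525, chr4:102087543-102607259, plus strand), which binds the scaffold Disc1, was at 12.8, 12.8 and 14.9 FPKM in knock-in libraries, against 13.5, 13.9 and 14.5 FPKM in wild-type libraries. Pde4a (ENSMUSG00000032177, chr9:21165714-21213248, plus strand) was at 11.9, 10.6 and 9.77 FPKM in knock-in libraries, against 11.1, 10.4 and 10.4 FPKM in wild-type libraries. Both overlapped between groups. For Pde4b the log2 difference was -0.05 (SE 0.07), and for Pde4a it was 0.01 (SE 0.08).

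Pde7b and Pde8b encode cAMP-specific enzymes of high affinity that rolipram does not inhibit. Pde7b (ENSMUSG00000019990, chr10:20398004-20725078, minus strand) was at 14.7, 14.2 and 17.8 FPKM in knock-in libraries, against 14.2, 15.2 and 15.6 FPKM in wild-type libraries. Only knock-in replicate 3 stood above the wild-type range. Pde8b (ENSMUSG00000021684, chr13:95024454-95250336, minus strand) was at 15.7, 16.1 and 17.1 FPKM in knock-in libraries, against 13.5, 15.8 and 16.5 FPKM in wild-type libraries, and wild type replicate 1 was the lowest. The log2 differences were 0.05 (SE 0.09) for Pde7b and 0.10 (SE 0.08) for Pde8b. Each exceeded its paralog. The ratio of Pde7b to Pde7a was 4.66 ± 0.204 in knock-in and 4.66 ± 0.417 in wild type, and that of Pde8b to Pde8a was 2.69 ± 0.311 in knock-in and 2.42 ± 0.438 in wild type (SD, n = 3 each). Of the exon bases of Pde8b, 447 lie opposite the predicted gene Gm48420, and the strand setting of the counting is not given in the sources used here.

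The make-up of the 10 genes' summed FPKM, 886.7, 912.2 and 1005.9 in knock-in against 928.9, 971.5 and 946.0 in wild type, was similar in each library. Pde1b took 63.8 ± 1.38% in knock-in and 63.3 ± 0.569% in wild type, Pde2a took 16.2 ± 0.829% in knock-in and 16.9 ± 0.192% in wild type, and Pde10a took 13.2 ± 1.15% in knock-in and 13.4 ± 0.678% in wild type (SD, n = 3 each). These 3 genes held 93.0% to 93.7% in every library. The 5 cAMP-specific members together held 5.84% to 6.4%. Of the shares of single genes, that of Pde4d did not overlap, at 0.192 ± 0.00394% in knock-in and 0.209 ± 0.00985% in wild type (exact permutation test, two-sided, p = 0.1). That is the smallest p that 3 against 3 libraries allow, and 10 shares were compared. The exact p of the other 9 shares was 0.2 or more.

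**Figure D3:**
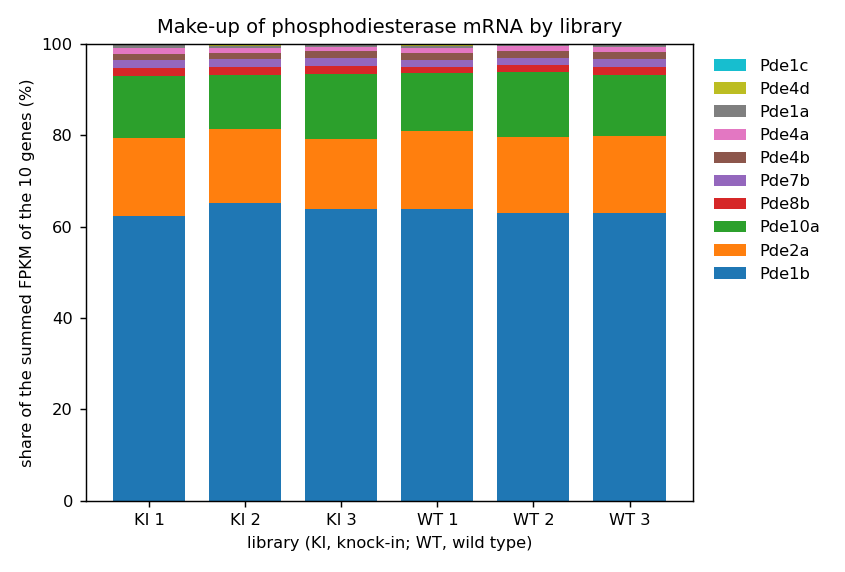
Share of each gene in the summed FPKM of the 10 phosphodiesterases, in percent, 1 bar per library, knock-in left of wild type. Pde1b fills 62.4% to 65.2% of every bar, and Pde1b, Pde2a and Pde10a together at least 93.0%.

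The other phosphodiesterases added little. Of 14 listed, 12 were in the table, and the 10 members made up 95.7% to 96.7% of the FPKM of all 22 genes. Of the 12, 5 were tested, with 1 higher, 4 lower and 0 called by limma, and 7 (Pde3a, Pde4c, Pde5a, Pde6b, Pde6g, Pde6h and Pde11a) were under 1 FPKM in every library. Pde6d, whose product is a carrier of prenylated proteins, was the most abundant of them and the most variable of the tested ones. Pde6d was at 13.9, 11.1 and 19.9 FPKM in knock-in libraries, against 22.0, 21.0 and 13.1 FPKM in wild-type libraries, and the groups overlapped. The cGMP-specific Pde9a was at 6.08, 7.32 and 6.39 FPKM in knock-in libraries, against 7.31, 7.15 and 6.91 FPKM in wild-type libraries. Pde8a lay between 5.62 and 7.33 FPKM, Pde7a between 2.96 and 3.85 FPKM and Pde3b between 1.19 and 1.47 FPKM over the 6 libraries. Below the filter, Pde5a, which hydrolyses cGMP, was at 0.388, 0.373 and 0.378 FPKM in knock-in libraries, against 0.432, 0.477 and 0.438 FPKM in wild-type libraries, without overlap. Pde11a was at 0.102, 0.0801 and 0.136 FPKM in knock-in libraries, against 0.197, 0.155 and 0.189 FPKM in wild-type libraries, also without overlap, and with no filter on low values its adjusted p in limma was 0.968. Pde3a, Pde4c, Pde6b, Pde6g and Pde6h overlapped between groups. The share of genes without overlap was not counted below the filter, so Pde5a and Pde11a have none beside them.

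The enzymes that make cyclic nucleotides were tested in the same way. Of 21 listed, 12 were tested, 3 higher and 9 lower in knock-in with 0 called, and their median log2 difference was -0.02. For these, the other phosphodiesterases and the lists that follow, the shares over all genes tested were 0.0212% called and 56.4% lower. Adcy5 was at 249.7, 243.6 and 261.2 FPKM in knock-in libraries, against 244.6, 262.0 and 253.3 FPKM in wild-type libraries. Gucy1b3, a subunit of soluble guanylyl cyclase, was at 52.3, 53.8 and 63.3 FPKM in knock-in libraries, against 59.0, 55.1 and 55.3 FPKM in wild-type libraries. Both genes overlapped between groups. The cyclases with the smallest p were Adcy2, with a log2 difference of 0.16, and Adcy9, with -0.12.

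Of 23 listed effectors of cyclic nucleotides, 11 were tested, 5 higher and 6 lower with 0 called and a median of -0.01. Regulatory subunits of protein kinase A were the most abundant. Prkar1a was at 108.8, 113.2 and 113.7 FPKM in knock-in libraries, against 104.4, 102.9 and 107.2 FPKM in wild-type libraries, without overlap, and Prkar1b overlapped, with a log2 difference of 0.16. The catalytic subunit Prkacb was at 44.7, 45.1 and 57.0 FPKM in knock-in libraries, against 25.1, 43.4 and 44.3 FPKM in wild-type libraries. These also did not overlap, though wild type replicate 1 stood far below the other wild-type libraries. Of the 11 tested effectors these 2 did not overlap, both higher, against 2.92% of all genes tested. Neither Prkar1a nor Prkacb was called (adjusted p = 0.997 each in limma).

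Of 15 calcium and calmodulin genes, 14 were tested, 10 higher and 4 lower with 0 called and a median of 0.06. By mean level the calmodulin-binding Pcp4 and Nrgn were the highest, at 1221.9 to 1460.6 FPKM and 844.6 to 1047.2 FPKM over the 6 libraries, though Calm2, a calmodulin gene, exceeded Nrgn in knock-in replicate 3 and wild type replicate 3. Camk2b, a calmodulin-dependent kinase subunit, was at 124.4, 138.8 and 127.5 FPKM in knock-in libraries, against 143.1, 138.8 and 145.4 FPKM in wild-type libraries. The groups touched at the digits shown, but the unrounded values did not overlap, with knock-in lower. That was 1 of the 14 tested, against 6.58% of all genes tested that were lower without overlap. Camk1g, a related kinase, had a log2 difference of 0.13. Of 10 listed partners of phosphodiesterases, 9 were tested, 5 higher and 4 lower with 0 called and a median of 0.00. Rack1, which binds a PDE4D form, was the highest. Nde1, which binds Disc1, was at 8.45, 9.07 and 7.55 FPKM in knock-in libraries, against 9.76, 9.28 and 9.46 FPKM in wild-type libraries, without overlap. It was the only 1 of the 9 tested partners without overlap, against 6.58% of all genes tested that were lower without overlap. Its paralog Ndel1 had a log2 difference of 0.11.

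Several members were high in the same library. Knock-in replicate 3 was the highest library for 6 of them, Pde1b, Pde1c, Pde4b, Pde7b, Pde8b and Pde10a, and above the mean of the 6 libraries for 7. Wild type replicates 3 and 2 were also above that mean for 7 and 6 members, wild type replicate 1 for 3, and knock-in replicates 1 and 2 for 2 each. The like counts over all genes tested were not made, so these are not shown to be particular to the members. Over all genes, knock-in replicate 3 had the highest summed FPKM of the 6 libraries, at 335508, and the lowest median-of-ratios scaling factor, at 0.9722. In knock-in replicate 3 Pde1c stood 18.1%, Pde7b 16.6% and Pde10a 13.4% above the mean. In the same library the summed markers of projection neurons were 6.2% above their mean, those of myelinating oligodendrocytes 19.1% below at 2943.3 FPKM, and those of oligodendrocyte precursors 23.7% below. Myelinating oligodendrocyte markers summed to 2943.3 to 3644.4 FPKM in knock-in and 3620.0 to 4127.5 FPKM in wild-type libraries, with 10 of 10 lower on average and 0 called. Summed ependymal markers, like Pde2a and Pde4d, were lower in each knock-in library than in any wild-type library. They summed to 14.5, 20.4 and 14.8 FPKM in knock-in libraries, against 24.5, 21.5 and 24.6 FPKM in wild-type libraries. Of the 5 tested, 5 were lower, against 56.4% of all genes tested, and 0 were called. An unadjusted p under 0.05 in limma was reached by 4, all lower, against 427 of the 14156 genes tested that were lower at that p. By gene, 3 of the 5 did not overlap, all lower, against 6.58% of all genes tested. Foxj1, a transcription factor of ciliated cells, was the highest. Wild type replicate 2 held Ttr, a choroid plexus transcript, at 374.4 FPKM, against 2.12 to 16.2 FPKM elsewhere. The part of these markers in the levels of the phosphodiesterases was not tested.

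**Figure D4:**
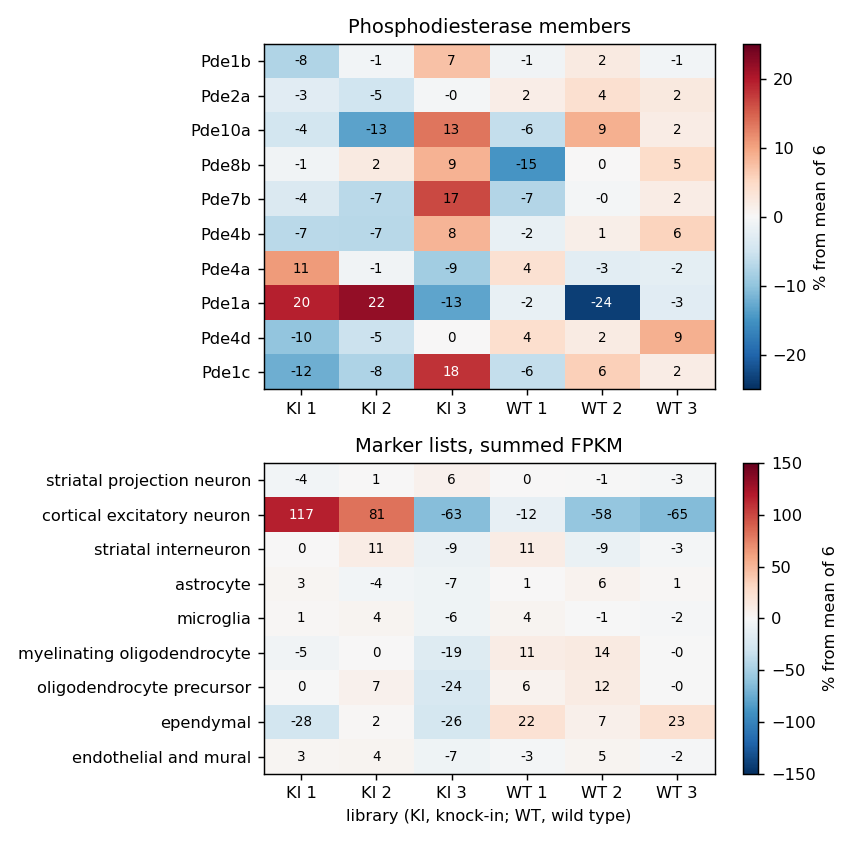
Percent difference of each library from the mean of the 6, for the 10 phosphodiesterases (upper panel) and for summed marker FPKM of 9 cell types (lower panel), knock-in left of wild type. Knock-in replicate 3 and wild type replicates 2 and 3 are above the mean for most members, while Pde1a and the cortical markers are high in knock-in replicates 1 and 2.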

How the data were processed

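The authors deposited 1 table of FPKM per gene and library. The submitters' processing notes list StringTie, HISAT2, SAMtools and FastQC without versions or roles. Build, annotation and strand setting were not given in the sources used here. With the step size of each library chosen to fit best, 37.8% to 41.1% of low values lay within 0.1 of a whole read. An even spread gives 20% for a step fixed in advance, so 20% is not the chance level for these fitted values. Counts were not recovered and depth is unknown. Summed FPKM was 314146 to 335508 per library. The values were tested as log2(FPKM + 1) with limma 3.58.1 in R 4.3.3 (trended, robust, two-sided, Benjamini-Hochberg) for the 14156 genes whose mean reached 1 FPKM. Lists were described by counts and medians. Alternatives changed the pseudocount, filter, scaling, block, covariate and libraries. The fit was tested on simulated data. The genes named were the members, all other phosphodiesterases, Slc17a7 and Lrrk2. Also named were the 2 highest and the 2 smallest p of each pathway list, and the highest of marker lists described. Xist, the Y-linked genes, Emx1, Neurod2, Neurod6, Cux2, Rorb, Calm2 and Gm45837 were chosen after their values were seen. Some genes that this rule covers are not reported here. The members and lists were chosen with earlier results of these data known. Identifiers were matched to GENCODE M21 on GRCm38 (22972 of 23067), which may differ from the authors' annotation.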

Additional observations from a re-analysis of the deposited data

How the results depend on the processing

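Of the 10 members and of the other phosphodiesterases, 0 were called under each of the 13 alternatives, and the lowest adjusted p of a member was 0.359 (limma). Over all genes the count of calls was 3, and 3 to 14 when 1 library was left out (11, 14 and 6 on dropping knock-in replicates 1, 2 and 3 in turn, and 8 on dropping wild type replicate 2). Of 127 member differences under alternatives, 18 turned direction, in 6 members. Leaving out 1 library gave log2 differences of -0.155 to 0.038 for Pde10a, -0.0648 to 0.0427 for Pde1b, -0.0828 to 0.0312 for Pde1c, -0.0604 to 0.067 for Pde4a and -0.0452 to 0.107 for Pde7b. With the cortical marker covariate they were 0.107 for Pde10a, 0.065 for Pde1b, 0.0901 for Pde1c, -0.09 for Pde4a and 0.0534 for Pde4b. That covariate differs between the groups itself, so its fit cannot tell the markers and the genotype apart. Median-of-ratios scaling gave 0.0099 for Pde1b and quantile normalization 0.0123 for Pde1c. The cause of these turns was not tested. Pde2a and Pde4d stayed lower in knock-in, and Pde1a and Pde8b higher, under every alternative run. Without wild type replicate 1 the log2 difference of Pde8b was 0.01, and without wild type replicate 3 it was 0.15. Leaving out 1 library gave 0.12 to 0.33 for Pde1a, the lowest without wild type replicate 2 and the highest without knock-in replicate 3. Same-numbered libraries correlated at -0.01, -0.07 and 0.19 in their deviations from the group mean, and other pairs at -0.184 to 0.21. With so few libraries these correlations cannot settle whether the numbers pair the samples. With a replicate block 0 members and 2 genes were called. Of 70 share differences (percentage points), 10 turned direction. Leaving out 1 library gave -0.703 to 0.415 for Pde10a, -0.103 to 1.27 for Pde1b, -0.0067 to 0.00362 for Pde1c, -0.0578 to 0.125 for Pde4a and -0.0482 to 0.000716 for Pde4b, and the sum over all phosphodiesterases gave 0.000236 for Pde1c. The share of Pde2a ran from -1.05 without knock-in replicate 1 to -0.223 without knock-in replicate 3. Read depth is unknown, so the precision of Pde1c and Pde4d rests on the spread between libraries alone.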
